A study of Mus musculus with 12 samples.

Results

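Clusters of SOX2 regions are runs of neighbouring binding regions on one chromosome, each separated from the next by at most 10 kb. Runs of at least 3 regions were kept. Of the 10351 distinct SOX2 regions called in asynchronous mouse embryonic stem cells, 406 lay in 126 such clusters, which is 3.92% of the list. A further 1474 regions formed 737 pairs, and 8471 regions had no neighbour within 10 kb. The clusters were chosen by the positions of the regions alone, so their number, spacing and span are descriptions and were not tested.

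SOX2 ChIP and input DNA were sequenced from mitotic and from asynchronous cells of the mouse embryonic stem cell line E14, with 3 libraries of each kind per condition. All cells grew on gelatin with 10% serum and leukemia inhibitory factor, and received 2 inhibitors, CHIR99021 (3 µM) against GSK3 and PD184352 (0.8 µM) against MEK. Mitotic cells were held overnight in nocodazole, a drug that stops spindle assembly, then fixed, stained and sorted by H3S10p, which marks histones on condensed chromosomes. Asynchronous cells are the growing population, in which all phases of the cell cycle are mixed. The replicates of a condition were pooled before regions were called, so no value below carries a replicate error. The lists give positions only; read depth and peak height are not known, and the stem cell label could not be checked against expressed markers. All coordinates are on mm10.

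SOX2 is a high mobility group transcription factor that bends DNA and, in pluripotent cells, often binds beside POU5F1 at composite sites. Enhancers that stem cell factors occupy frequently occur in groups, and such groups have been described near genes that maintain cell identity. A group of regions on the map is a statement about position and does not by itself identify an enhancer or its target gene.

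Of the 126 clusters, 102 held 3 regions, 21 held 4, 2 held 5 and 1 held 6. The cluster with 6 regions ended next to the Mir290 locus, which encodes the microRNAs that predominate in mouse embryonic stem cells and favour their rapid cell cycle. It ran over chr7:3193100-3217784, a span of 24.7 kb, and 9 microRNA genes lay 0.841 to 2.99 kb beyond its right edge. Mature microRNAs recognise their targets through the seed, bases 2 to 8. The following mature sequences, from RefSeq (GRCm38.p6), are shown as 3p products next to this cluster whose seeds are the same or differ in the last base only. The whole seed is in capitals, and a 3p sequence of miR-292a was not used here.
mmu-miR-291a-3p: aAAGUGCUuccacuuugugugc
mmu-miR-294-3p: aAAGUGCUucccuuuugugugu
mmu-miR-295-3p: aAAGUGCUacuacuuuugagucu
mmu-miR-290a-3p: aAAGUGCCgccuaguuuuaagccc
mmu-miR-291b-3p: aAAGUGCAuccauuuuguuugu

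The seed AAGUGCU was shared by 3 of these sequences. On the opposite arm, the seed CUCAAAC was shared by 3 mature sequences, those of miR-290a-5p, miR-292a-5p and miR-293-5p. All 9 microRNA genes belong to 1 locus and to 1 cluster, so they count as a single instance of a cluster beside microRNAs.

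The 6 regions of the Mir290a cluster had widths of 491, 497, 523, 248, 392 and 278 bp from left to right. The gaps between them were 7552, 4812, 5182, 1127 and 3583 bp. The 3 widest regions were thus the 3 farthest from the microRNA genes. The nearest protein-coding gene was Nlrp12, a regulator of innate immune signalling, whose span came to within 0.858 kb of the cluster and overlapped the microRNA genes. With a largest gap of 5 kb, the longest run left at this locus held 3 regions.

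A second cluster lay over a microRNA gene group. It held 5 regions at chr6:30159583-30174862, and 4 of them overlapped Mirc35hg, the long non-coding host transcript of Mir182, Mir96 and Mir183. These microRNAs are best known from sensory organs. Their mature products are printed because the 3 genes lie inside the cluster's span, at 1.34 kb (Mir182), 1.42 kb (Mir96) and 1.48 kb (Mir183) from the nearest member region; the seed is in capitals.
mmu-miR-182-5p: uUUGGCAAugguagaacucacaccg
mmu-miR-96-5p: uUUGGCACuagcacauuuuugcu
mmu-miR-183-5p: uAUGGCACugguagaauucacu

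None of the 3 seeds was identical to another. The regions of this cluster were 290, 358, 189, 330 and 183 bp wide, with gaps of 7463, 147, 3188 and 3132 bp. Its last region had the smallest width in the whole list, 183 bp. The nearest protein-coding gene was Nrf1, a transcription factor of mitochondrial and metabolic genes, 6.12 kb away.

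Another cluster with microRNA genes in its span held 3 regions at chr13:63293750-63303150, inside Aopep, an aminopeptidase gene. Mir23b, Mir27b, Mir3074-1 and Mir24-1 lay between its regions. Mir24-1 was 0.084 kb, Mir27b 0.136 kb and Mir23b 0.363 kb from the nearest region. The best-known arms of Mir27b and Mir24-1 are given as examples, with the seed in capitals.
mmu-miR-27b-3p: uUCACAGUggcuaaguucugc
mmu-miR-24-3p: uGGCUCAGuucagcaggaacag

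The regions here were 212, 203 and 232 bp wide, all below the median width of the list. In total, 19 microRNA genes at 6 clusters had a cluster within 10 kb, out of 1228 microRNA genes (1.55%). The other 3 clusters each had 1 such gene: Mir6352 at Epha4, an ephrin receptor gene, Mir8110 at Sall1 and Mir1195 at Tgif1. Of 23 matched genes on a list of microRNAs with known roles in stem cells or differentiation, 6 had a cluster within 10 kb (26.1%). All 6 were genes of the Mir290 locus beside the same cluster. They are a single instance, so the share carries no interval and is not comparable with the 1.55%.

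**Figure D1:**
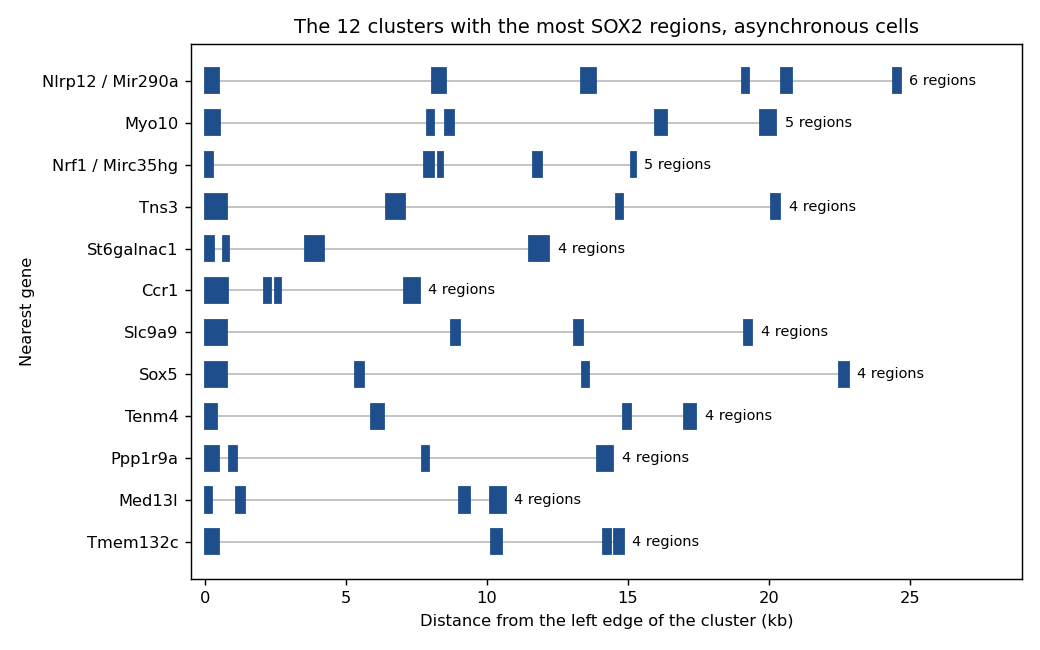
Each row is one of the 12 clusters with the most regions, named by its nearest gene, with each SOX2 region of asynchronous cells as a blue bar at its distance in kb from the left edge of the cluster and the span as a grey line. The top row, with 6 regions over 24.7 kb, is the cluster beside Mir290a; the rows below hold 5 or 4 regions over 7.61 to 22.8 kb.

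Among the other large clusters, several sat inside long genes. The second largest by number held 5 regions over 20.3 kb, all within Myo10, an unconventional myosin of filopodia (chr15:25753915-25774178). Its region widths were 514, 256, 329, 457 and 572 bp, so the widest were at the ends. The gaps were 7359, 365, 7121 and 3291 bp. The Tns3 cluster, in the gene of a focal adhesion protein, had 4 regions of 762, 697, 258 and 339 bp over 20.4 kb. The Sox5 cluster had 4 regions of 779, 330, 228 and 337 bp over 22.8 kb, inside a gene of 953.9 kb that encodes another SOX family factor. In both, the leftmost region was more than 2 times as wide as the narrowest. The Tenm4 cluster, in the gene of a teneurin cell adhesion receptor, had more even widths of 408, 465, 297 and 424 bp over 17.4 kb.

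The other large clusters by number had 4 regions each. The Slc9a9 cluster, at the gene of an endosomal sodium-proton exchanger, spanned 19.4 kb with 3 of its regions on the gene. The Ppp1r9a cluster, in the neurabin gene, spanned 14.5 kb. At St6galnac1, a sialyltransferase gene, the cluster spanned 12.2 kb with 1 region on that gene and 2 on the non-coding BC018473. The cluster 26.1 kb from Ccr1, a chemokine receptor gene, spanned 7.61 kb, and its first region was the widest of all cluster members at 799 bp. The last 2 of the 12 lay far from coding genes: one was 114.1 kb from Med13l, a Mediator kinase module subunit, and the other 471.9 kb from Tmem132c. The non-coding genes nearest to these were Gm30746 at 15.8 kb and 1700081B01Rik at 5.36 kb.

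By span, the 8 longest clusters ran from 19.4 to 24.7 kb. Besides the Mir290a, Sox5, Tns3, Myo10 and Slc9a9 clusters, they included those in Dock1 (20.2 kb) and in Ctnnd2 (19.4 kb). Dock1 encodes a guanine nucleotide exchange factor for Rac, and Ctnnd2 encodes a delta-catenin. The Ctnnd2 cluster was the sparsest of all 126, with 4.74% of its span covered by regions.

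The densest clusters of at least 4 regions were short. The smallest median gap, 594 bp, was at Rhof, a small GTPase gene, where regions of 660, 188, 216 and 263 bp spanned 3.92 kb. At Hes3, a basic helix-loop-helix repressor related to Notch targets, all 4 regions (462, 301, 483 and 220 bp) lay on the gene within 5.86 kb, and the median gap was 1364 bp. At Patz1, a zinc finger transcription factor gene, 4 regions spanned 4.44 kb. At Phc1, a Polycomb repressive complex 1 subunit, regions of 205, 597, 252 and 397 bp spanned 7.59 kb, and 1 overlapped the gene. A cluster 11.3 kb from Tgif1, a homeodomain repressor of TGF-beta signalling, had regions of 211, 423, 584 and 218 bp and a median gap of 749 bp. The other clusters of this kind were 41.0 kb from Vwa3b (698 bp), near Med13l (835 bp) and near Ccr1 (1275 bp).

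Across all 126 clusters, the span had a median of 9.40 kb, with quartiles of 6.26 and 12.4 kb. It was under 5 kb in 18 clusters and over 20 kb in 6. The regions covered a median of 10.1% of the span of their cluster, and over 25% in 14 clusters. The 2 most covered clusters were the one 4.11 kb from Ttc39b, where 3 regions covered 57.8% of 2.36 kb, and the one 9.02 kb from F2rl1, a protease-activated receptor gene, where they covered 55.4% of 1.73 kb. Both lay outside coding genes. In all, the clusters spanned 1248 kb, of which 137.4 kb was region.

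The 280 gaps within clusters ranged from 0.127 to 9.99 kb, with a median of 3.30 kb. Of these, 57 (20.4%) were under 1 kb, 43 were 1 to 2 kb, 77 were 2 to 5 kb, 84 were 5 to 9 kb and 19 were 9 to 10 kb. Over the whole list, the 10330 gaps between neighbouring regions had a median of 113.8 kb, and 1017 were at most 10 kb. Counted in steps of 2 kb, the gaps of the whole list numbered 345, 192, 177, 158 and 145 up to 10 kb, and 123, 140, 148, 128 and 126 from there to 20 kb. Gap numbers were thus highest under 2 kb, and there was no break in the distribution at 10 kb. The largest gap that joined regions was 9987 bp and the smallest that split them was 10011 bp. A limit of 9 kb gave 110 clusters and a limit of 11 kb gave 141. With 5 kb there were 51 clusters, and with 20 kb there were 281.

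**Figure D2:**
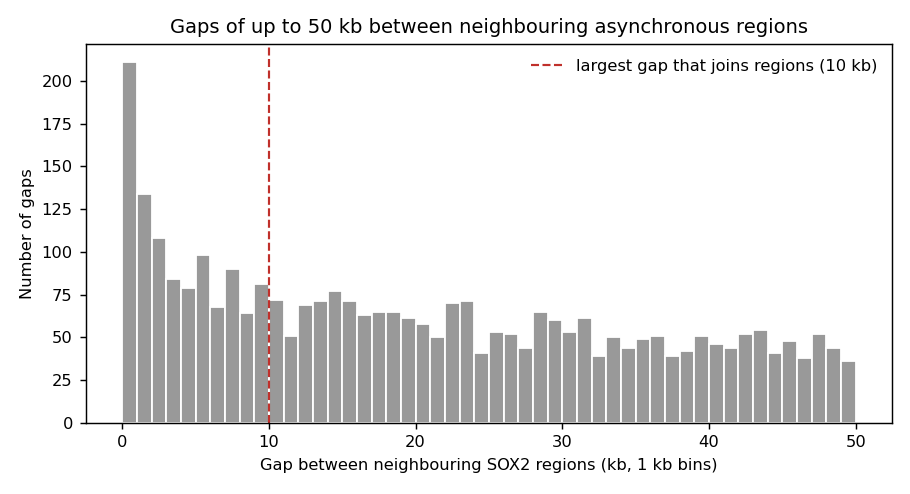
The number of gaps between neighbouring asynchronous SOX2 regions (y axis) is plotted against gap length in kb in 1 kb bins (x axis), up to 50 kb, with a dashed line at the 10 kb limit. Counts are highest below 2 kb, where 345 gaps fall, and pass the limit without a step, with 81 gaps from 9 to 10 kb and 72 from 10 to 11 kb.

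Within a cluster the regions differed in width. The widest was a median of 1.86 times as wide as the narrowest, with a range of 1.09 to 3.92 times. Of the 102 clusters of 3 regions, the widest region was the left one in 34, the middle one in 23 and the right one in 45. In 19 clusters every region was wider than the list's median of 289 bp, and in 10 none was. Widths come from the same peak calls as the positions and also depend on depth, so they are given as descriptions. The median width was 306 bp for cluster members, 300.5 bp for regions in pairs and 286 bp for single regions. Regions at the smallest width of 183 bp made up 1.72% of cluster members (7 of 406), 2.99% of paired regions and 4.83% of single regions. Some regions were listed with several summits: 12 cluster members (2.96%), 18 paired regions (1.22%) and 141 single regions (1.66%).

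Most clusters were isolated from each other. The next region beyond a cluster was a median of 40.5 kb away, and the next cluster a median of 5205 kb, with a smallest distance of 13.9 kb. Another cluster lay within 200 kb of 10 of the 126 clusters, and the neighbours at some of these are named here. One pair, 50.7 kb apart, lay at Clybl, a mitochondrial lyase gene, with all 3 regions of one cluster and 1 region of the other on the gene. Other pairs lay in and beyond Plpp3 (106.2 kb apart) and near Sfrp2 (170.3 kb apart). The cluster in Dlgap1 was 113.5 kb from the cluster near Tgif1. The nearer of the Clybl pair lay 53.0 kb from Zic5, a zinc finger transcription factor gene.

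Of the 37 genes on a pluripotency list, 3 had a cluster within 10 kb: Pou5f1, Esrrb and Dppa5a (8.11%, exact interval 1.70 to 21.9%). Over all 21887 protein-coding genes, 129 had one, which is 0.589%. The list and its members were compiled with results of these data known, and this share carries no test. Of the same 37 genes, 27 had at least 1 SOX2 region within 10 kb, so a region without a cluster was commoner than a cluster. The share of all protein-coding genes with a region within 10 kb is not given here, so the 27 are a description only.

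Pou5f1 encodes the POU factor that partners SOX2. Its cluster, at chr17:35502603-35510842, had 3 regions of 441, 679 and 613 bp with gaps of 685 and 5822 bp. The first and second regions were to the left of the gene and the last overlapped its right end. Esrrb encodes an orphan nuclear receptor of the naive stem cell network. Its 3 regions of 470, 623 and 237 bp all lay in the gene, over 5.83 kb (chr12:86498760-86504592). Dppa5a encodes a small RNA-binding protein that marks pluripotent cells. Its cluster, at chr9:78364894-78375233, had 4 regions of 234, 202, 186 and 275 bp on both sides of the gene with none on it. All 4 were narrower than the list's median, unlike the regions at Pou5f1. Ooep, an oocyte gene, lay 1.67 kb beyond the right edge.

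Among 17 formative and primed state genes, Etv5 alone had a cluster within 10 kb (5.88%, exact interval 0.149 to 28.7%). Etv5 is an ETS factor downstream of FGF signalling, and its 3 regions of 566, 194 and 198 bp lay in the gene over 10.6 kb. No cluster lay within 10 kb of any of 25 signalling genes; 3 counts divided by the total set an upper limit of 12%. The same held for 15 trophectoderm genes (20%), 20 neuroectoderm genes (15%), 18 mesendoderm genes (16.7%), 22 chromatin genes (13.6%) and 17 housekeeping genes (17.6%). It also held for lists of other cell types, 17 liver genes (17.6%) and 15 fibroblast genes (20%). Over all protein-coding genes the share was 0.589%, so lists of this size seldom hold such a gene. Every limit is also above the pluripotency share of 8.11%, so these counts of 0 do not set the lists apart from it. At least 1 SOX2 region within 10 kb was found for 19 of the 25 signalling genes and 11 of the 17 formative and primed genes. The number was 13 of 22 for chromatin, 11 of 20 for neuroectoderm, 7 of 15 for trophectoderm and 6 of 18 for mesendoderm genes. It was 5 of 17 for housekeeping, 0 of 17 for liver and 6 of 15 for fibroblast genes. Having a region nearby was thus not particular to the pluripotency list.

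**Figure D3:**
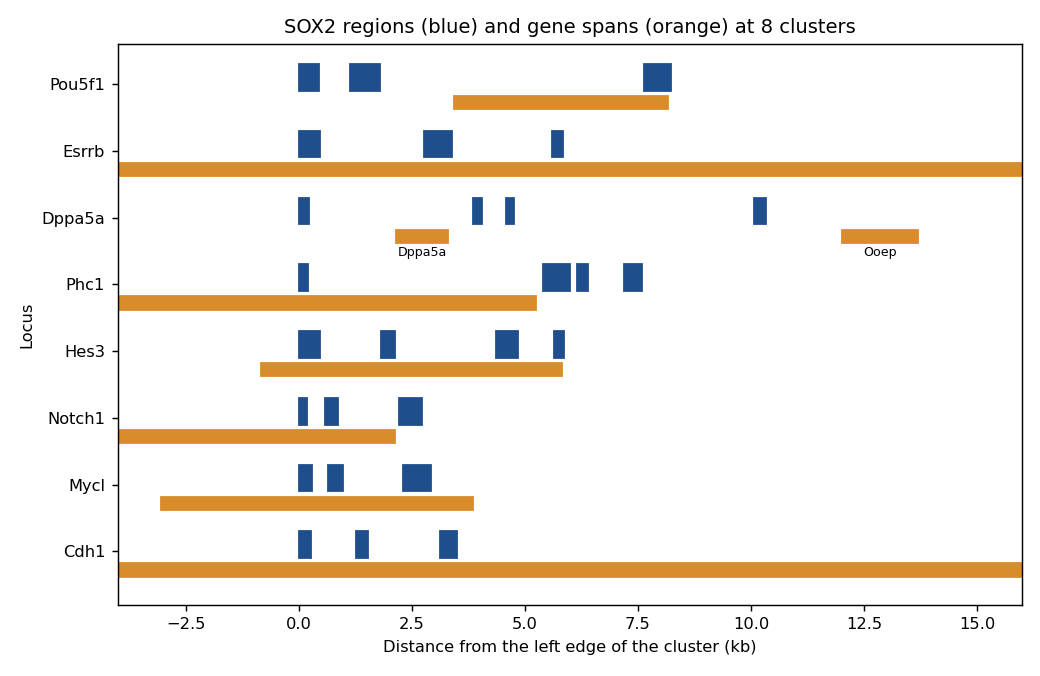
For 8 clusters, SOX2 regions of asynchronous cells (blue) and RefSeq gene spans (orange) are drawn at their distance in kb from the left edge of the cluster, one locus per row. At Hes3 (4 regions), Esrrb, Mycl and Cdh1 (3 each) every region lies on the gene, at Pou5f1, Phc1 and Notch1 some lie outside it, and at Dppa5a all 4 lie outside it.

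Several other genes with known roles in stem cells or early development were singled out after their clusters were seen. Mycl, a Myc family gene, had 3 regions of 295, 339 and 630 bp within 2.93 kb, which covered 43.1% of the span. Notch1, a receptor of cell-cell signalling, had regions of 193, 277 and 504 bp within 2.73 kb, 2 of them on the gene. Cdh1, which encodes E-cadherin, had regions of 260, 246 and 378 bp within 3.49 kb, all on the gene. Dusp1, a phosphatase gene of the MAP kinase pathway, lay between the regions of a cluster with widths of 444, 321 and 571 bp, and none overlapped it. Other clusters touched Zscan10, a zinc finger gene of pluripotent cells, Tead1, a Hippo pathway effector, Jmjd1c, a Jumonji domain gene, Slc7a5, an amino acid transporter gene, and Gpx4, a gene that protects lipids from peroxidation.

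Sox2 and Nanog, central genes of the same network, had their nearest cluster farther off. The cluster nearest to Sox2 lay 103.9 kb from it, at chr3:34756408-34761657, with regions of 324, 270 and 512 bp, and Sox2 was its nearest protein-coding gene. The cluster nearest to Nanog lay 50.5 kb away inside Slc2a3, a glucose transporter gene, with regions of 214, 233 and 434 bp.

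Clusters also lay at imprinted loci, whose genes are expressed from 1 parental allele; these too were picked with their clusters in view. Grb10, an adaptor that restrains growth factor signalling, held 3 regions of 504, 423 and 345 bp over 8.12 kb. A cluster of 9.87 kb bridged Sgce and Peg10, with 2 regions on Sgce and 1 on Peg10. Between Dlk1 and Meg3, regions of 371, 287 and 263 bp spanned 5.02 kb at chr12:109528987-109534008. Meg3, a maternally expressed non-coding RNA, was 6.99 kb away, and Dlk1, a paternally expressed Notch ligand relative, was 65.7 kb away.

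Of the 126 clusters, 79 touched a protein-coding gene (62.7%, exact interval 53.6 to 71.2%). In 48 the whole span lay inside 1 gene (38.1%, exact interval 29.6 to 47.2%). These host genes had a median length of 226.5 kb, and 26 were over 200 kb. A gene had to hold the whole span to count as a host, which favours long genes. A further 36 clusters lay outside coding genes but within 50 kb of one, and 11 lay farther than 50 kb, 5 of them farther than 200 kb. Of those 11, 9 had a non-coding gene within 50 kb. A non-coding gene was touched by 29 clusters, of which 15 touched no coding gene, so 32 clusters touched neither kind. Contact with non-coding genes was not counted for paired or single regions, so these numbers are descriptions only.

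The 11 clusters farther than 50 kb from any coding gene included those near Med13l, Tmem132c and Sox2. The farthest after Tmem132c was 318.1 kb from Lyzl1, a lysozyme-like gene. Others lay 283.1 kb from Grin2a, a glutamate receptor subunit gene, 274.6 kb from Tmem182, 211 kb from Dhx35, an RNA helicase gene, and 176.3 kb from Sfrp2, a secreted Wnt modulator gene. The remaining 3 lay 52.8 to 78.3 kb from Sestd1, Spaca7 and Rassf10.

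Because a cluster is longer than a region, members and other regions were compared one by one by their midpoints. The members of a cluster share their surroundings, so intervals over members are narrower than those over independent sites would be. A midpoint inside a protein-coding gene was found for 208 of 406 cluster members (51.2%, exact interval 46.3 to 56.2%), 46.9% of paired regions and 47.9% of single regions; over the whole list the share was 47.9%. The interval for members holds the value of the list. More than 50 kb from any coding gene were 39 of 406 members (9.61%), 274 of 1474 paired regions (18.6%) and 1870 of 8471 single regions (22.1%), against 21.1% of the list. Members outside coding genes were a median of 17.4 kb from the nearest one, against 24.7 kb for paired and 33.2 kb for single regions. Host genes of members had a median length of 164.5 kb, against 106.1 kb for paired and 121.7 kb for single regions. Of members with a host gene, 42.3% had one over 200 kb, against 32.6% of paired and 35.4% of single regions. How far gene density along the chromosomes goes with these differences was not tested.

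**Figure D4:**
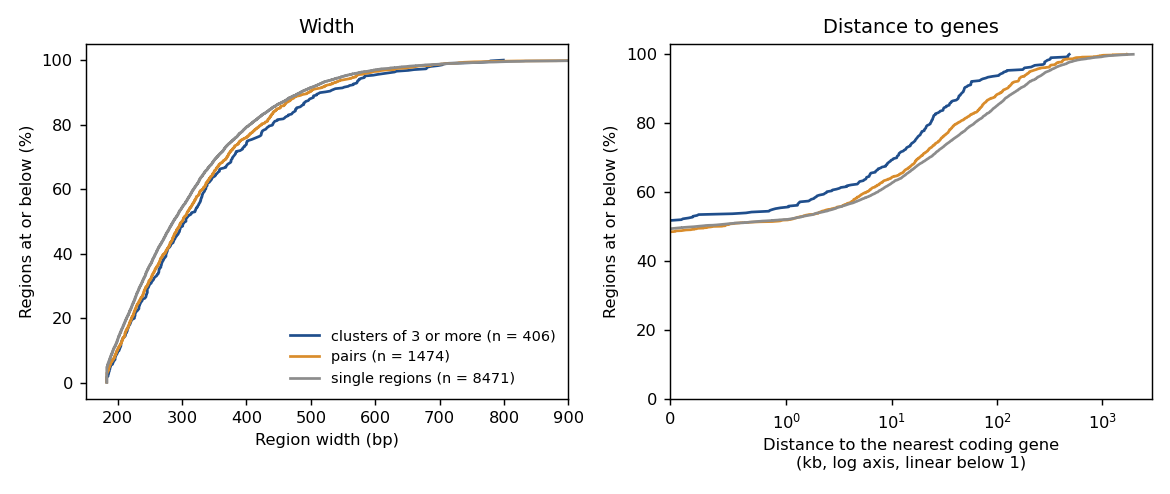
Cumulative shares of regions (y axes, %) are plotted against region width in bp (left) and distance to the nearest protein-coding gene in kb on a log axis that is linear below 1 kb (right), for cluster members (blue, n = 406), pairs (orange, n = 1474) and single regions (grey, n = 8471). The blue width curve runs slightly to the right, with medians of 306, 300.5 and 286 bp, and the blue distance curve lies above the others beyond a few kb.

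Few cluster members overlapped an available promoter window. Windows were available for 81.8% of protein-coding genes, so shares of regions on a window are lower bounds, for members and for other regions. Of 394 members on the chromosomes with promoter windows, which run from 250 bases before to 50 bases after a RefSeq start site, 13 overlapped a window (3.30%, exact interval 1.77 to 5.58%). The share was 4.55% for paired regions, 4.48% for single regions and 4.45% for the list, which the interval for members holds. The 13 regions lay on 15 windows, since Ctsa and Neurl2 start back to back, as do Notch1 and Gm35978. Both strands were searched for the octamer ATGCAAAT, which POU factors bind, for the SOX sites CATTGTT and CTTTGTT, and for TTGTNATG, the core of the composite site of SOX2 and POU5F1. The core and the octamer may share bases where they meet.

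The octamer was found in 3 of the 15 windows (20%, exact interval 4.33 to 48.1%), those of Zfp428, Shroom3 and Sfrp2. It was in 4 of 74 windows on paired regions (5.41%), 18 of 423 on single regions (4.26%) and 1.74% of all 32851 windows. One of the SOX sites was in 5 of the 15 (33.3%, exact interval 11.8 to 61.6%), against 21.6% on paired regions, 27.4% on single regions and 9.36% of all windows. The sites of Ctsa and Neurl2 are the same bases in overlapping windows, so that site is counted more than once. The site of Zfp553 lay outside the member region. The core of the composite site was in 0 of the 15, which allows a share of up to 20%, against 9.46% on paired regions, 6.62% on single regions and 3.37% of all windows. With 15 windows, of which several share sequence, these shares carry wide intervals.

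The 150 bases before the start site are printed for the 3 genes with an octamer and for 1 gene with a SOX site, to show where the letters lie in a promoter that a cluster member overlaps. The sequences are from RefSeq (GRCm38.p6), plus strand, and the capitals mark the octamer or, for Ctsa, the SOX site, read on either strand.
Zfp428 (chr7:24506937-24507086): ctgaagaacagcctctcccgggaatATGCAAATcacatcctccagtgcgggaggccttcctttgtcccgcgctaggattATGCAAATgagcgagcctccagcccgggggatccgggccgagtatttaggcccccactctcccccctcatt
Shroom3 (chr5:92897843-92897992): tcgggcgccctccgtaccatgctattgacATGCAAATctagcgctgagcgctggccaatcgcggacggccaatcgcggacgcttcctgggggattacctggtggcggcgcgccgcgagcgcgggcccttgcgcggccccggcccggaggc
Sfrp2 (chr3:83766171-83766320): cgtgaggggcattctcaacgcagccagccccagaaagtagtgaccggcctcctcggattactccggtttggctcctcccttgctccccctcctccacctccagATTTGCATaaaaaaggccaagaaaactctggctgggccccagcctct
Ctsa (chr2:164833623-164833772): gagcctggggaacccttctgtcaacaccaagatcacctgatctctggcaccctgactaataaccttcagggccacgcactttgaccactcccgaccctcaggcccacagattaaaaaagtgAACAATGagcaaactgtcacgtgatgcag

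At Zfp428, a zinc finger gene, 2 octamers lay 125 and 71 bases before the start, and the member region of 339 bp covered the whole promoter window. At Shroom3, which encodes an actin-binding protein of apical constriction, the octamer lay 121 bases before the start, inside a region of 352 bp. At Sfrp2 it lay on the reverse strand 47 bases before the start, inside a region of 212 bp. At Ctsa, a lysosomal carboxypeptidase gene, the SOX site lay on the reverse strand 29 bases before the start, inside a region of 185 bp.

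The share of regions that lay in clusters varied from chromosome to chromosome, and the highest and lowest are given here. Chromosome 17, which carries Pou5f1, had 38 of its 477 regions in 12 clusters (7.97%, exact interval 5.70 to 10.8%). Chromosome 8 had 6.86% in 12 clusters and chromosome 6 had 6.60% in 13 clusters. Chromosome 19 had 3 of 283 regions in 1 cluster (1.06%, exact interval 0.219 to 3.07%), and the X chromosome had 3 of 173 in 1 cluster, at Glod5. Neither of the 2 regions on the Y chromosome was in a cluster. The intervals treat regions as independent, although cluster members come at least 3 at a time. The differences between chromosomes were not tested.

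**Figure D5:**
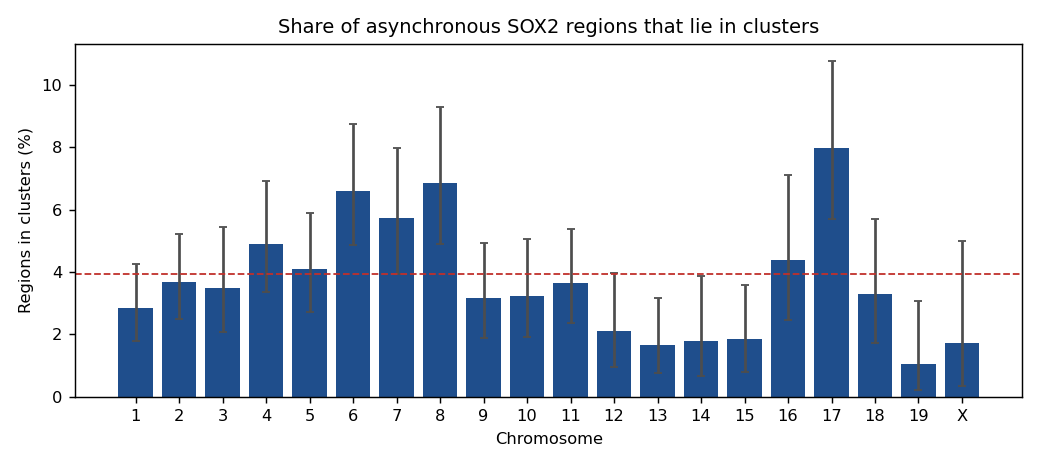
The share of asynchronous SOX2 regions on chromosomes 1 to 19 and X (the Y chromosome, with 2 regions and no cluster, is not drawn) that lies in clusters (y axis, %) is drawn as a bar per chromosome, with exact 95% intervals as error bars and a line at the whole-list share of 3.92%. Chromosomes 17, 8 and 6 have the highest bars (7.97, 6.86 and 6.60%) and chromosome 19 the lowest of those drawn (1.06%).

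Mitotic cells had 84 regions, which played no part in choosing the clusters. Of the 126 clusters, 2 had a mitotic region within 50 kb (1.59%, exact interval 0.193 to 5.62%). Counted by region, this held for 6 of 406 cluster members (1.48%, exact interval 0.544 to 3.19%), 16 of 1474 paired regions (1.09%) and 62 of 8471 single regions (0.732%), against 0.812% of the list. The interval for members holds the value of the list, and the 6 members belong to only 2 mitotic regions. Seen from the mitotic list, 2 of 84 regions (2.38%) lay within 50 kb of a cluster, 4 within 100 kb and 11 within 1 Mb, and the median distance was 5002 kb.

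No mitotic region overlapped a cluster member. For 0 of 406 the upper limit, set by 3 counts, is 0.739%. Overlapped regions numbered 2 among paired (0.136%) and 7 among single regions (0.0826%), against 9 of 10351 in the list (0.087%). The limit for members is above each of these shares, so the count of 0 does not set members apart. Overlap with a cluster member was thus not detected with a list of 84 mitotic regions. The mitotic list was also called at a looser q-value tag, 0.05 against 0.01 for the asynchronous list.

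One of the 2 mitotic regions lay inside the span of a cluster. It was the 115 bp region chr8:89012135-89012249, between the second and last regions of the cluster near Sall1, a zinc finger gene active in stem cells and in organ development. It was 3.52 kb from the nearest member and 14.99 kb from the Sall1 gene. The asynchronous regions there, at chr8:89003426-89016028, were 572, 401 and 256 bp wide with gaps of 2467 and 8907 bp, and the cluster's right edge was 11.2 kb from the gene. With a largest gap of 5 kb this run was not a cluster.

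The other was the 110 bp region chr1:171578563-171578672, inside Cd244a, a receptor gene of natural killer cells. It was 36.0 kb from a cluster at Itln1, an intelectin gene, whose asynchronous regions were 704, 331 and 267 bp wide, 1 of them on the gene. It overlapped an asynchronous region outside any cluster. The next nearest mitotic regions were 83.5 kb from the cluster at Tubb3, a neuronal tubulin gene, 88.9 kb from that in Adgrg1, an adhesion receptor gene, and 137.1 kb from that in Shroom3.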

How the data were processed

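The 12 libraries were SOX2 ChIP and input DNA of mitotic and of asynchronous cells, 3 replicates in each of 4 groups per the labels. Bowtie2 version 2.2.1, MACS2 and the build mm10 are named per the submitters' processing notes; a MACS2 version is not given in the sources used here. Peaks of 3 pooled replicates were called against input once per condition, per the deposited names, with q-value tags of 0.05 (mitotic) and 0.01 (asynchronous), and blacklisted regions were removed. The deposited values are positions in bp, with neither scores nor counts (unit class other), so depth and replicate spread are unknown.

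Starts were converted to positions counted from 1. Of 10532 asynchronous entries, 181 repeated the coordinates of another and were merged. Regions with an edge-to-edge gap of at most 10 kb were chained, and chains of at least 3 were kept; the chaining was tested on simulated positions. Gene spans, microRNAs and promoter windows came from RefSeq (GRCm38.p6). The windows cover 81.8% of protein-coding genes on 20 chromosomes, so start-site distances are not reported. Intervals are exact (Clopper-Pearson, 95%), and limits for a count of 0 are 3 counts divided by the total; both cover counting error only. No significance test was run, because the members were chosen by position and each condition has 1 list.

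Members, lists and alternatives were chosen with earlier results of these data known. Named genes are those nearest to the 12 clusters with the most regions, to the 8 with the longest span, to the 8 densest with at least 4 regions and to clusters with a mitotic region within 50 kb, and listed genes within 10 kb of a cluster. Genes outside this rule were picked with their values in view. One gene that the rule selects is not reported here. Python 3.11.15, numpy 2.4.6, pandas 2.3.3, scipy 1.17.1 and matplotlib 3.10.9 were used.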

Additional observations from a re-analysis of the deposited data

How the results depend on the processing

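The number of clusters follows the gap limit. At 5 kb, 160 regions formed 51 clusters, 52.9% of which touched a coding gene, and 0% had a mitotic region within 50 kb. At 20 kb, 949 regions formed 281 clusters. Clusters of at least 4 regions numbered 24 with 100 regions, and 0% had a mitotic region within 50 kb. With regions above the median width only, 87 regions formed 28 clusters, again with 0%. Requiring a mitotic region to overlap a member also gave 0%. Listed pluripotency genes with a cluster within 10 kb numbered 2 at a gap limit of 5 kb, 3 at 10 kb and 9 at 20 kb. The share of all protein-coding genes was counted at the 10 kb limit only (0.589%). The number of clusters also rose from 51 to 281, so the rise is not a result about the list. Of 115 recomputed values over 20 results and 12 settings, 82 stayed within the reported share's counting interval or 1.5 times the reported count. The other 33 moved by more. The mitotic shares of 0% are among the 33. With 0 of 51, 0 of 24 and 0 of 28 clusters, the first 3 of these cannot be told from the reported 1.59%.

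Peak numbers in the asynchronous list run to 15590, and 5239 of them are not listed. Why they are not listed is unknown. In 8 of the 126 clusters, 9 unlisted numbers fell between members. Counting only the numbers that fall within a run of listed regions, an alternative chosen after seeing the data, gave 136 clusters with 426 listed regions, since 10 pairs then held at least 3 numbers. The other unlisted numbers have no position here and were not counted.

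No paired analysis was possible because each list was called once on pooled replicates, and leaving out a replicate was not possible for the same reason. Read depth is unknown for both lists, so what it limits was not tested.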
